A study of Mus musculus with 4 samples.

Results

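The comparison described here sets mouse embryonic fibroblasts (MEFs) that stained for Oct4 but not for Klf4 against MEFs that did not stain for Oct4, with 1 array a side of the 4 arrays in the series. It was read across 18193 genes, each represented by 1 probe set, the one whose average across the series was highest. Of these, 10758 reached the floor, a log2 level of 4.53 that is the median of the whole value table, on one or both of the compared arrays, and 7435 did not. The series holds fractions of reprogramming MEFs, cells converted toward pluripotency by introduced transcription factors. Per the labels, all cells were fixed, permeabilized and stained before sorting, and their RNA was recovered with a kit for fixed material and amplified as whole transcripts. The Oct4+Klf4-negative fraction and the Oct4-negative fraction are described here, and the 2 Klf4-positive fractions, without and with EpCAM, are given as levels beside them. For the Oct4-negative cells the labels name no gate on Klf4 or EpCAM, and for the Oct4+Klf4-negative cells none on EpCAM. The labels used here give neither the day of sorting, the factors introduced, their delivery nor the sex or strain of the embryos. The labels do not tie the Oct4-negative cells to the culture of the Oct4-positive ones, so culture and Oct4 stain cannot be told apart.

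Oct4, the product of Pou5f1, is a POU-domain transcription factor that maintains the pluripotent state of the early embryo and is silent in fibroblasts. It binds an octamer motif in DNA, often together with Sox2. In reprogramming it acts with Klf4, a zinc finger factor, and cells lose fibroblast genes such as those of the matrix and of contraction before most genes of pluripotency come on. Primary MEF cultures are mixed, with fibroblasts of several embryonic origins and some cells of other lineages.

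Pou5f1 had a log2 level of 11.48 in Oct4+Klf4-negative cells and 7.59 in Oct4-negative cells. The 2 Klf4-positive arrays had 11.66 and 11.70, so the 3 Oct4-positive arrays lay close together and the Oct4-negative array stood apart, though still above the floor. The difference at the compared gate was 3.89, or 14.8-fold, on the single Pou5f1 probe set that reached the floor. Klf4 had a level of 6.24 in Oct4+Klf4-negative cells and 7.32 in Oct4-negative cells, and its other probe set read 5.69 in Oct4+Klf4-negative cells and 6.95 in Oct4-negative cells. Both probe sets were thus lower in the Oct4+Klf4-negative cells than in the Oct4-negative cells, with differences of -1.08 and -1.25. On the Klf4-positive arrays the brighter Klf4 probe set read 10.20 and 10.60. Epcam, the third sorted protein, had 5.20 in Oct4+Klf4-negative and 4.63 in Oct4-negative cells, a difference of 0.57 that did not reach 2-fold. The MEF label was read against 18 fibroblast markers, 16 of which reached the floor, with a summed linear level of 12490 in Oct4+Klf4-negative cells and 20721 in Oct4-negative cells. Of the 16 markers, 2 were higher and 4 lower by at least 2-fold, beside 3.81% and 5.14% of all measured genes. Their median difference was -0.71, and 11 of 16 were negative. Among those that differed little, Col3a1, a fibrillar collagen chain of loose connective tissue, was bright in both fractions. It had 11.13 in Oct4+Klf4-negative and 11.14 in Oct4-negative cells.

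With 1 array a side there is no replicate, so no difference below has a test or an error over samples. The only check is whether different probe sets of a gene gave the same answer. In the 5399 genes read by several probe sets above the floor, the median SD of the difference between a gene's own probe sets was 0.165 log2 units, and over the 408 such genes past the size rule it was 0.291. That scatter holds nothing of the variation between cultures or sorts. In RNA from a sorted fraction, fewer cells of a type and less RNA per cell cannot be told apart. Array medians ran from 4.49 to 4.55 over the series, 75.8% of genes in the Oct4+Klf4-negative array and 76.1% in the Oct4-negative array lay above the highest of 27 bacterial control probe sets (2.94), and 18 spiked control probe sets differed by -0.31 to 0.07 with a median of -0.16. The 3′ over 5′ control difference of Gapdh was 1.30 on the Oct4+Klf4-negative array and 1.04 on the Oct4-negative array, and that of beta-actin was -0.05 and -0.06 on the same arrays. The part of RNA integrity in the gene differences was not tested.

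A gene was called higher or lower where one level was 2-fold the other or more and the brighter of them reached the floor. By this rule 410 genes were higher in Oct4+Klf4-negative cells, 3.81% of the 10758 measured, and 553 were lower, 5.14%. These shares are the background for every count of list members below. The median difference of all measured genes was 0.02, and its interquartile range was -0.22 to 0.25. The tails had different shapes. More genes were lower than higher at 2-fold, but 52 were higher and 47 lower at 8-fold, 23 were higher and 4 lower at 16-fold, and 5 were higher and 0 lower at 32-fold. These counts use differences as read, also where the dimmer level was at or below 2.94. Folds taken against 2.94 are smaller for such genes, as for Sptssb, with a difference of 4.09 but a bound of 11.9-fold. In the quartile of genes with the lowest brighter level, 5.95% were higher and 6.28% lower. In the brightest quartile, 1.75% were higher and 3.83% lower.

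**Figure D1:**
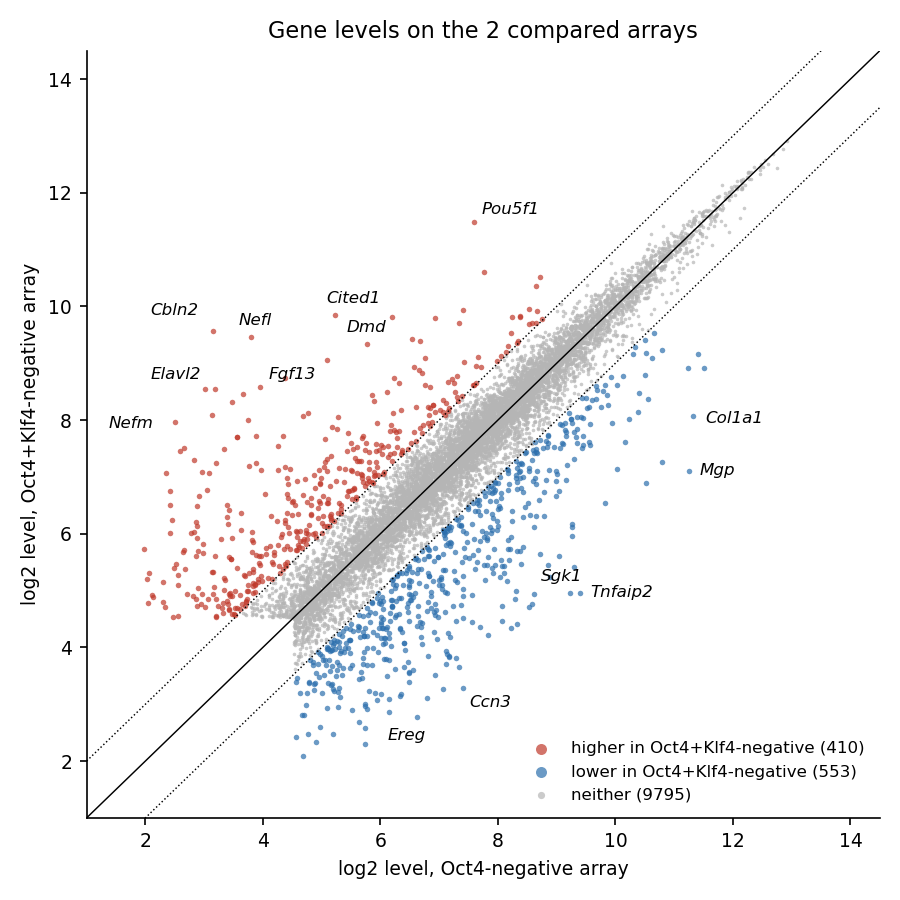
Log2 level of each measured gene on the Oct4+Klf4-negative array (vertical axis) against the Oct4-negative array (horizontal axis), 1 array each, with the line of equality and dotted lines at 2-fold. The 410 genes above the upper dotted line reach as far as Cbln2, and the 553 below the lower one as far as Tnfaip2 and Sgk1, while most of the brightest genes lie between the dotted lines.

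Of the 410 higher genes, 172 had several probe sets reaching the floor. In 118 of these (68.6%) every such probe set was past 2-fold, in 50 (29.1%) the others went the same way by less, and in 4 (2.33%) at least 1 went the opposite way. Of the 553 lower genes, 236 had several, with 150 (63.6%) all past 2-fold, 83 (35.2%) the same way and 3 (1.27%) opposed. The weakest measured probe set went the same way by less than 2-fold for Ptx3 (0.42), Slc1a3 (-0.39), Tnfrsf1b (-0.59), Cav2 (-0.67), Msmo1 (-0.72), Spry4 (-0.76) and Il6ra (-0.77). The opposed genes were H2-K1, Kbtbd7, Rabgap1l and Zdhhc14 among the higher and Arhgef17, Atg9b and Scmh1 among the lower. Atg9b, a homolog of the autophagy membrane protein Atg9a, shows how far this can go: its brighter probe set differed by -3.43 and another by 0.06. H2-K1, a class I histocompatibility gene whose sequence closely resembles its neighbours, ranged from -0.13 to 1.83 and is uncertain for that reason.

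**Figure D2:**
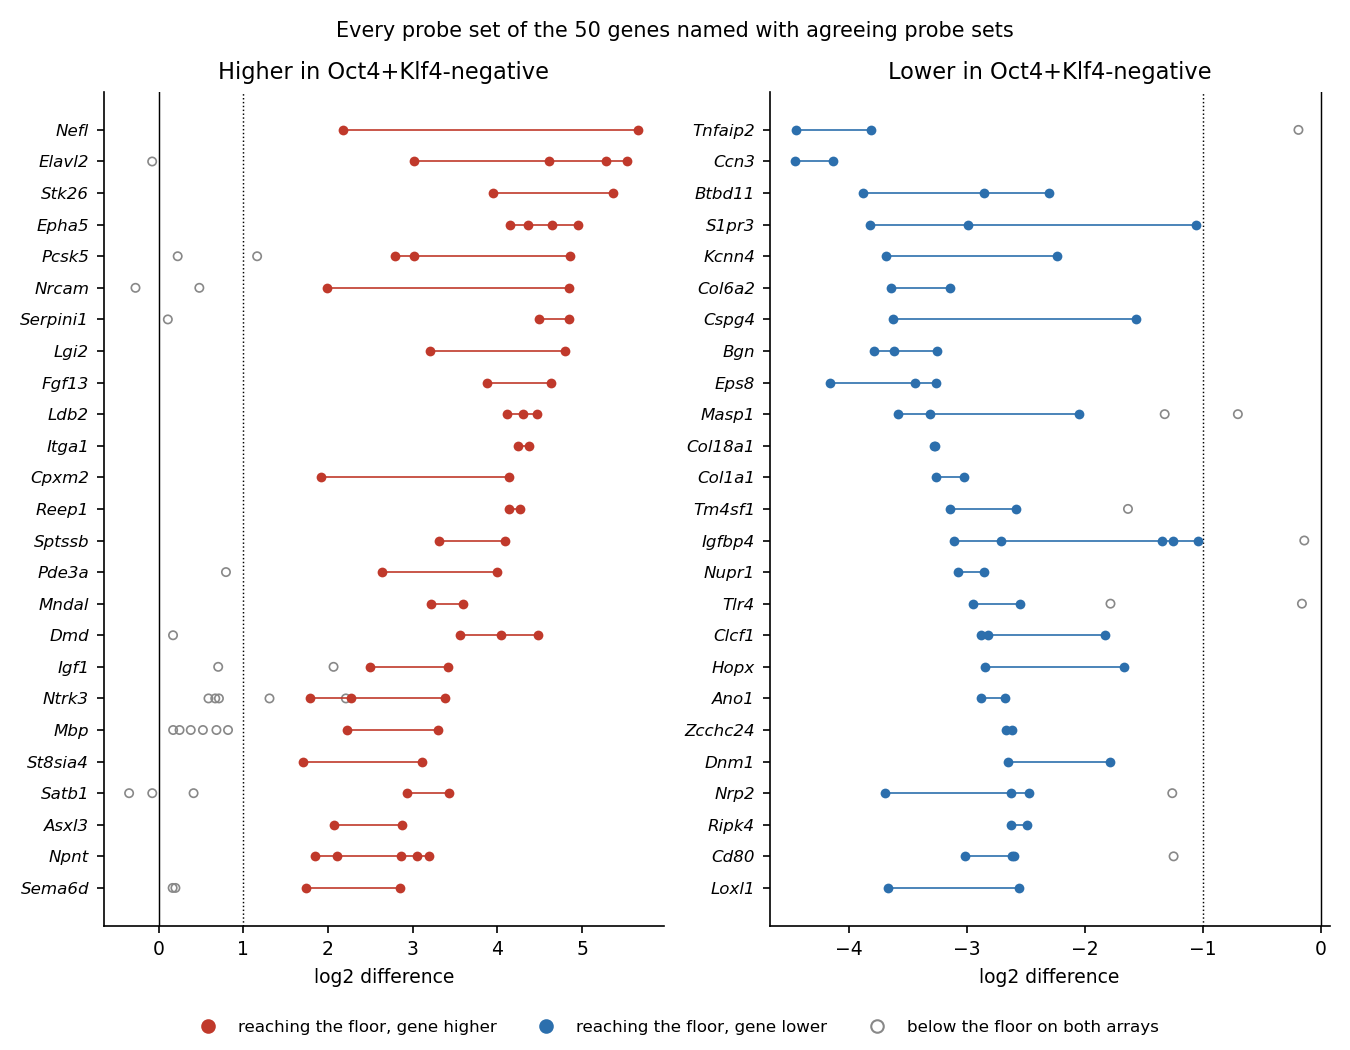
Log2 difference, Oct4+Klf4-negative minus Oct4-negative, of every probe set of the 25 higher and 25 lower genes with the largest differences among those whose probe sets all passed 2-fold. Filled points reached the floor on a compared array and open points did not, and the dotted lines mark 2-fold. The filled points of each gene lie on one side, with wide spreads for Nefl, Nrcam, S1pr3 and Igfbp4 and narrow ones for Itga1, Reep1 and Col18a1.

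Genes of neurons were among those with the largest higher differences. Of 20 neuron markers, 11 reached the floor, 7 of them higher and 0 lower, with a median difference of 1.51. Of 13 measured neuronal adhesion molecules 7 were higher and 0 lower (median 1.13), of 18 neuronal cytoskeleton genes 6 were higher and 0 lower (median 0.44), and of 15 synaptic organizers and vesicle proteins 6 were higher and 1 lower (median 0.71). Other neuronal lists differed in both directions. Of 10 measured neuronal RNA-binding proteins 2 were higher and 1 lower, with 6 of 10 negative and a median of -0.03, and of 7 neuronal transcription factors 2 were higher and 1 lower (median 0.43). These shares stand beside the 3.81% and 5.14% over all measured genes.

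The light neurofilament chain Nefl, which fixes the calibre of axons, had a level of 9.46 in Oct4+Klf4-negative cells and 3.80 in Oct4-negative cells. Its second probe set read 4.96 in Oct4+Klf4-negative cells and 2.78 in Oct4-negative cells, so both were higher and the differences were unequal, 5.66 and 2.17. The medium neurofilament chain Nefm had 7.97 in Oct4+Klf4-negative and 2.51 in Oct4-negative cells. It was at least 32.6-fold higher, on 1 probe set. Elavl2, an RNA-binding protein that stabilizes neuronal messages, was higher on all 4 of its measured probe sets, by 3.02 to 5.53. Map2, a microtubule protein of dendrites, was already bright in Oct4-negative cells and differed evenly, with levels of 10.36 in Oct4+Klf4-negative and 8.64 in Oct4-negative cells and differences of 1.44 to 1.84 over 4 probe sets. Tubb2b, a beta-tubulin of young neurons, had 9.81 in Oct4+Klf4-negative and 8.24 in Oct4-negative cells. Stmn2, a microtubule-destabilizing protein of growing axons, had 6.93 in Oct4+Klf4-negative and 5.24 in Oct4-negative cells, which is modest beside its levels of 11.17 and 10.98 on the Klf4-positive arrays.

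Cell-surface molecules of neurites were also higher. Ncam1, the neural cell adhesion molecule, had a level of 8.83 on the Oct4+Klf4-negative array and 6.71 on the Oct4-negative array, and its 6 measured probe sets gave differences of 1.71 to 2.64. St8sia4, which builds the polysialic acid chains carried by Ncam1, had 6.50 in Oct4+Klf4-negative and 3.39 in Oct4-negative cells and was 8.62-fold higher. Cadm1, a synaptic adhesion protein of the immunoglobulin family, was higher on 4 probe sets by 2.23 to 2.58. Chl1, a close homolog of L1, had 7.85 in Oct4+Klf4-negative and 5.26 in Oct4-negative cells. Negr1 and Cntn3, both anchored to the membrane by a lipid, had 6.49 and 4.80 in Oct4+Klf4-negative cells, against 2.87 and 2.30 in Oct4-negative cells, on 1 probe set each. Their Oct4-negative levels lay at background, so Negr1 was at least 11.7-fold and Cntn3 at least 3.64-fold higher. Alcam, an adhesion molecule of axons and of leukocytes, was higher by 1.13 on its brightest probe set, and its 4 measured probe sets ranged from 0.99 to 1.18.

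Secreted and vesicular proteins followed. Scg5, a chaperone of prohormone convertase in secretory granules, had 7.11 in Oct4+Klf4-negative cells and 3.97 in Oct4-negative cells. Vgf, a precursor of neuropeptides, had 7.25 in Oct4+Klf4-negative and 3.20 in Oct4-negative cells and was 16.5-fold higher on 1 probe set. Reep1, which shapes the endoplasmic reticulum of axons, had 7.70 in Oct4+Klf4-negative and 3.56 in Oct4-negative cells, and its 2 probe sets differed by 4.13 and 4.27. The exception was Nptx1, a pentraxin that gathers glutamate receptors, which was lower, with 3.24 in Oct4+Klf4-negative and 4.87 in Oct4-negative cells. Synpr, a synaptic vesicle membrane protein, was at least 3.84-fold higher on 1 probe set, its Oct4-negative level being at background.

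Several markers of neurons did not pass the rule. Snap25, the vesicle fusion protein of synapses, had 2.35 in Oct4+Klf4-negative and 2.10 in Oct4-negative cells, at background on both arrays. Dcx of migrating neurons and Syp of synaptic vesicles had 2.94 and 3.53 in Oct4+Klf4-negative cells, against 2.92 and 3.34 in Oct4-negative cells. Unlike Nefl and Nefm, the filament chains Nefh and Ina had 2.81 and 3.20 in Oct4+Klf4-negative cells, against 2.83 and 3.13 in Oct4-negative cells. They were below the floor like Dcx and Syp. Tubb3 and Rbfox3, both widely used to identify neurons, had 4.53 and 4.47 in Oct4+Klf4-negative cells, against 4.83 and 4.57 in Oct4-negative cells. The summed linear level of the 20 neuron markers was 3416 in Oct4+Klf4-negative cells and 881 in Oct4-negative cells. On the Klf4-positive arrays it was 4078 without EpCAM and 4127 with EpCAM, so a high sum was not particular to the Oct4+Klf4-negative fraction. Whether a share of neuron-related cells in the fraction had a part in the differences was not tested.

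Markers of neural progenitors and of Schwann cells were split. Among 6 measured progenitor markers 2 were higher and 2 lower, with a median of 0.28. Sox1, a neuroectoderm factor, had 5.05 in Oct4+Klf4-negative and 2.90 in Oct4-negative cells. Slc1a3, a glutamate transporter of radial glia, went the other way with 4.61 in Oct4+Klf4-negative and 6.91 in Oct4-negative cells. Mbp, the myelin basic protein gene, had 7.54 in Oct4+Klf4-negative cells and 4.25 in Oct4-negative cells, and its 2 measured probe sets differed by 2.22 and 3.29. Its 6 other probe sets stayed below the floor with differences under 1. The Schwann and crest factor Sox10 had 4.49 in Oct4+Klf4-negative and 4.52 in Oct4-negative cells. The pigment factor Mitf was lower, with 4.08 in Oct4+Klf4-negative and 6.08 in Oct4-negative cells.

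Receptors and ligands of axon growth and guidance differed in both directions. Ntrk3, the neurotrophin-3 receptor, had 7.72 in Oct4+Klf4-negative and 4.34 in Oct4-negative cells, with 1.79 to 3.39 over 3 probe sets. Gfra1, the co-receptor of glial cell line-derived neurotrophic factor, had 7.11 in Oct4+Klf4-negative and 5.09 in Oct4-negative cells and also agreed over 3 probe sets. Bdnf, a ligand, was lower, with 3.27 in Oct4+Klf4-negative and 5.19 in Oct4-negative cells. Of 15 measured ephrins and Eph receptors 4 were higher and 1 lower. All 4 were class A receptors: Epha5 differed by 4.15 to 4.95 over 4 probe sets, Epha3 by 2.44, Epha7 by 1.69 and Epha4 by 1.59. Epha2, the class A receptor typical of epithelia, was the 1 lower gene at 4.94 in Oct4+Klf4-negative and 6.48 in Oct4-negative cells. Among 15 measured semaphorins Sema6d, Sema3d, Sema3c and Sema3b were higher and Sema5a lower. Sema6d and Sema3d had 5.83 and 5.33 in Oct4+Klf4-negative cells, against 2.98 and 3.14 in Oct4-negative cells. The semaphorin co-receptors Nrp1 and Nrp2 were lower, with differences of -2.16 and -2.63. The netrin receptor Unc5b had 5.46 in Oct4+Klf4-negative and 8.85 in Oct4-negative cells, the largest lower difference in the guidance list.

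**Figure D3:**
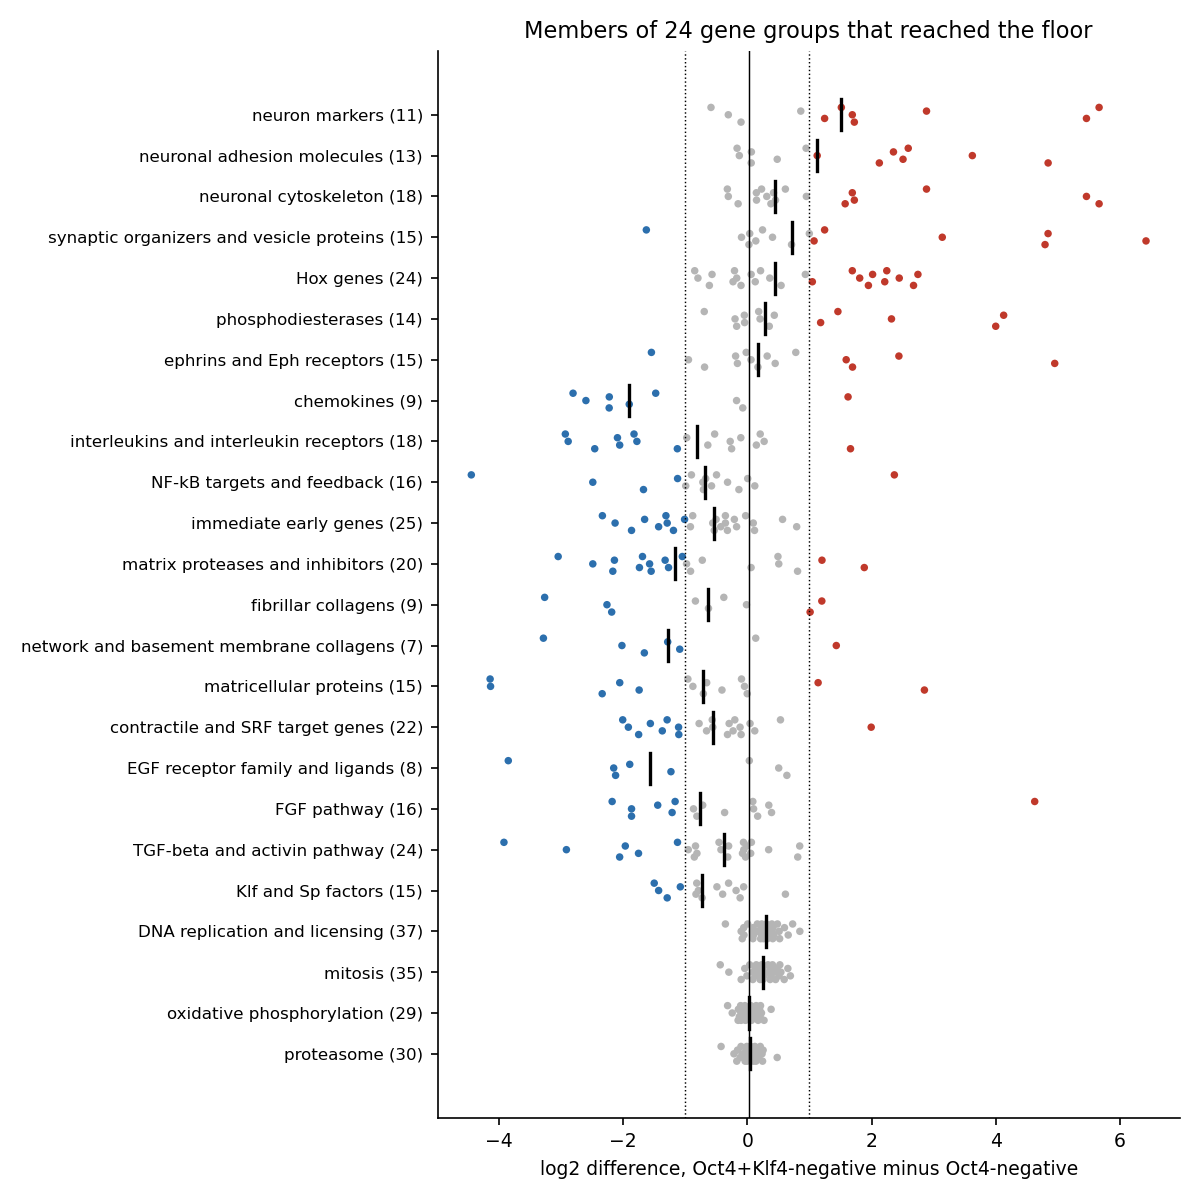
Log2 difference, Oct4+Klf4-negative minus Oct4-negative, of each member reaching the floor in 24 gene groups, with the number of such members in brackets. Red points are higher and blue points lower by the 2-fold rule, grey points neither, and the black bar is the group's median. Neuronal groups and Hox genes extend to the right. Inflammatory, matrix, contractile and growth factor groups have negative medians, though several also hold higher members, up to 4.63 in the FGF pathway. Replication, mitosis, oxidative phosphorylation and proteasome genes stay between the dotted 2-fold lines.

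Several growth factor and second-messenger genes outside the nervous system lists were also higher. Fgf13, a member of the fibroblast growth factor family that stays inside the cell and binds sodium channels, had 8.58 in Oct4+Klf4-negative cells and 3.96 in Oct4-negative cells. Its 2 probe sets differed by 3.87 and 4.63. Igf1, insulin-like growth factor 1, had 7.18 in Oct4+Klf4-negative and 3.76 in Oct4-negative cells. Igf2, its fetal relative, went the other way with 8.14 in Oct4+Klf4-negative and 10.39 in Oct4-negative cells. Of 14 measured phosphodiesterases, the enzymes that break down cyclic nucleotides, 5 were higher and 0 lower. Pde1a, Pde3a and Pde4b had 7.09, 7.08 and 7.77 in Oct4+Klf4-negative cells, against 2.96, 3.08 and 5.45 in Oct4-negative cells, and Pde4b differed by 1.56 to 2.58 over 3 probe sets. Pde4d and Pde7b were higher by 1.46 and 1.18. Tek, the angiopoietin receptor of endothelium, had 7.49 in Oct4+Klf4-negative and 3.33 in Oct4-negative cells on 1 probe set. The endothelial markers Pecam1, Cdh5 and Kdr had 2.68, 2.51 and 2.31 in Oct4+Klf4-negative cells, against 2.82, 2.55 and 2.46 in Oct4-negative cells, at background on both arrays.

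Dmd, which encodes dystrophin, had 9.33 in Oct4+Klf4-negative cells and 5.77 in Oct4-negative cells, and 3 probe sets differed by 3.56 to 4.48. Nebl, a nebulin-like actin-binding protein, had 6.77 in Oct4+Klf4-negative and 3.05 in Oct4-negative cells. Of 22 skeletal muscle markers 6 reached the floor, with 0 higher, 0 lower and a median of 0.05. Cited1, a transcriptional co-regulator of mesenchyme in the embryonic kidney, had 9.85 in Oct4+Klf4-negative cells and 5.22 in Oct4-negative cells on 1 probe set and was 24.7-fold higher.

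Integrins and laminins differed in both directions, beside 3.81% higher and 5.14% lower over all measured genes. Of 12 measured integrins 2 were higher and 3 lower (median -0.18), and of 11 laminins and linkers 3 were higher and 2 lower (median 0.16). Itga1, the collagen-binding alpha-1 integrin chain, had 8.75 in Oct4+Klf4-negative cells and 4.37 in Oct4-negative cells, with 2 probe sets at 4.24 and 4.38. Itga8, the alpha-8 chain, had 9.38 in Oct4+Klf4-negative and 6.68 in Oct4-negative cells. Npnt, nephronectin, a matrix ligand of the alpha-8 integrin, had 9.79 in Oct4+Klf4-negative and 6.93 in Oct4-negative cells and differed by 1.85 to 3.19 over 5 probe sets. Both partners were therefore higher in the same fraction. Lama2 and Lama4, laminin alpha chains of mesenchymal basement membranes, had 8.12 and 8.65 in Oct4+Klf4-negative cells, against 4.77 and 7.25 in Oct4-negative cells. Lama5 and the laminin linker Nid1 were lower, with differences of -1.23 and -1.96. The integrin chains Itga3, Itga4 and Itgb3 were lower, with differences of -1.22, -1.36 and -1.13.

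Hox genes, which record position along the body axis, differed by cluster. Of 24 measured Hox genes 10 were higher and 0 lower. Cluster B had 4 of 5 higher (median 1.95), cluster C 5 of 6 (median 1.91), cluster D 1 of 6 (median 0.29) and cluster A 0 of 7 (median -0.57). Hoxc9, of the thoracic to lumbar region, had 7.26 in Oct4+Klf4-negative and 5.05 in Oct4-negative cells. Its cluster A paralog Hoxa9 had 7.47 in Oct4+Klf4-negative and 7.35 in Oct4-negative cells. The 2 measured Hoxa9 probe sets opposed each other, with differences of 0.13 and -0.94. The paralogs Hoxc10 and Hoxa10 likewise differed in size, with 5.92 and 6.49 in Oct4+Klf4-negative cells, against 3.47 and 6.72 in Oct4-negative cells. Hoxc4 and Hoxb4 were both higher, with 7.45 and 6.50 in Oct4+Klf4-negative cells, against 5.43 and 4.55 in Oct4-negative cells. In cluster D, Hoxd8 had 6.97 in Oct4+Klf4-negative and 4.72 in Oct4-negative cells and agreed on both probe sets, and its 5 measured neighbours from Hoxd9 to Hoxd13 differed by -0.21 to 0.54. Hoxc5 was higher on all 3 measured probe sets, by 1.05 to 1.96, and 8 of the 10 higher Hox genes rested on 1 probe set. Of 23 measured paired and limb homeobox factors 3 were higher and 1 lower (median 0.13). The higher Shox2 and Irx5 had 6.06 and 7.57 in Oct4+Klf4-negative cells, against 4.64 and 5.93 in Oct4-negative cells. The lower one was Prrx2, a paired factor of limb mesenchyme, with 3.70 in Oct4+Klf4-negative and 7.12 in Oct4-negative cells on 1 probe set.

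**Figure D4:**
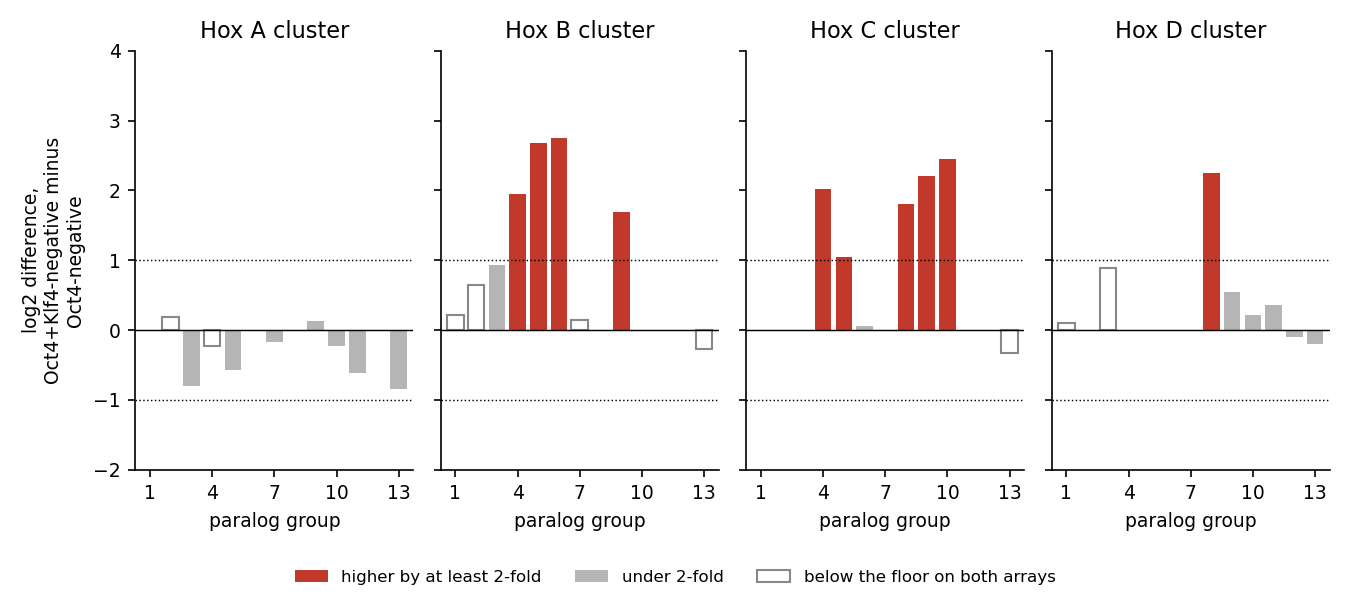
Log2 difference, Oct4+Klf4-negative minus Oct4-negative, of each Hox gene on the array by paralog group (1 is anterior) in the 4 clusters, 1 bar a gene. Red bars are higher by at least 2-fold, grey bars under 2-fold, and open bars did not reach the floor. Red bars stand at paralog groups 4 to 10 of clusters B and C and at Hoxd8, and cluster A has none.

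Other transcription and chromatin genes moved in both directions. Satb1, which folds chromatin into loops in thymocytes and neurons, had 5.46 in Oct4+Klf4-negative and 2.52 in Oct4-negative cells. Ldb2, a cofactor of LIM-homeodomain proteins, and Asxl3, a partner of Polycomb deubiquitinase, had 7.30 and 7.12 in Oct4+Klf4-negative cells, against 2.83 and 4.25 in Oct4-negative cells. Tox3, a high-mobility-group factor, had 6.24 in Oct4+Klf4-negative and 2.46 in Oct4-negative cells. Smarca1, an ATPase that spaces nucleosomes, had 5.61 in Oct4+Klf4-negative and 2.86 in Oct4-negative cells on 1 probe set. Hmga2, an architectural factor of embryonic mesenchyme, was lower, with 8.92 in Oct4+Klf4-negative and 11.24 in Oct4-negative cells and 4 agreeing probe sets. The mesenchymal factors Foxc1 and Foxd1 were lower, with 6.76 and 3.99 in Oct4+Klf4-negative cells, against 8.17 and 5.77 in Oct4-negative cells. Of 15 measured Klf and Sp factors 0 were higher and 4 lower, and 14 of 15 had a negative difference (median -0.73). Klf6 agreed over 4 probe sets at -1.37 to -1.10, Klf3 had 7.59 in Oct4+Klf4-negative and 9.09 in Oct4-negative cells and Klf10 differed by -1.43. Klf4 was among the lower genes too, but its protein was used to sort the Oct4+Klf4-negative cells. The labels name no Klf4 gate for the Oct4-negative cells.

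Pluripotency genes were mostly below the floor, with 15 of 23 early or broad genes and 16 of 22 late or naive genes on the array not reaching it. Of 8 measured early or broad genes 2 were higher and 1 lower, and of 6 measured late or naive genes 0 were past 2-fold in either direction, beside the 3.81% higher and 5.14% lower over all genes. The higher ones were Alpl, an alkaline phosphatase abundant in pluripotent cells, and L1td1, an RNA-binding protein of such cells, with 8.08 and 4.96 in Oct4+Klf4-negative cells, against 4.68 and 3.44 in Oct4-negative cells. The lower one was Slc2a3, a glucose transporter, with 4.58 in Oct4+Klf4-negative and 6.32 in Oct4-negative cells. Tet1 and Tet2, which oxidize methylated cytosine, had 6.33 and 8.07 in Oct4+Klf4-negative cells, against 5.34 and 7.14 in Oct4-negative cells, close to the 2-fold line. Nanog and Sox2 had 2.58 and 2.12 in Oct4+Klf4-negative cells, against 2.67 and 3.15 in Oct4-negative cells, below the floor. Rhox5, an X-linked homeobox gene of germ line and placenta, had 7.14 in Oct4+Klf4-negative and 5.39 in Oct4-negative cells, and Apela, a peptide hormone of early embryos, was higher by 2.63 on 1 probe set (named after its value was seen).

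Because Oct4 binds the octamer ATGCAAAT, the 250 bases before each RefSeq start site were searched for it on both strands. It stood in 1.27% of 316 higher genes with a promoter entry (4 genes), 1.46% of 411 lower ones (6 genes) and 1.32% of all 8765 measured genes with an entry. The 3 shares lay close together. The 2 windows below belong to the higher and the lower gene with the largest difference among those with a match, and are shown for the motif in capitals (which reads ATTTGCAT on the opposite strand). Both are from RefSeq on GRCm38.p6, printed 5′ to 3′ on the gene's strand.
Synpr, chr14:13453741-13453848, plus strand: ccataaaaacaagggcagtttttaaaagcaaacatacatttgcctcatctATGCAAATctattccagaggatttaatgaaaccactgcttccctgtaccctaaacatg
Sned1, chr1:93235706-93235813, plus strand: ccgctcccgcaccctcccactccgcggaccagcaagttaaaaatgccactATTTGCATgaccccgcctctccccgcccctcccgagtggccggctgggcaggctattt
Synpr had 4.88 in Oct4+Klf4-negative cells and 2.12 in Oct4-negative cells, and Sned1, a matrix protein with a nidogen domain, had 5.54 in Oct4+Klf4-negative cells and 8.19 in Oct4-negative cells. The windows show that a gene with the motif can lie on either side of this comparison.

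Inflammatory signalling genes were often lower, beside 5.14% lower and 3.81% higher over all measured genes. Of 9 measured chemokines 6 were lower and 1 higher (median -1.90), of 18 interleukins and their receptors 8 were lower and 1 higher (median -0.80), and of 16 NF-kB targets and feedback genes 4 were lower and 1 higher (median -0.69). Cxcl1, a neutrophil attractant that fibroblasts release on NF-kB activation, had 8.01 in Oct4+Klf4-negative cells and 10.24 in Oct4-negative cells, and its 3 probe sets gave -2.25 to -2.07. Cxcl5, a relative of Cxcl1, and Cxcl12, a homing signal made by stroma, had 4.45 and 4.25 in Oct4+Klf4-negative cells, against 6.67 and 6.15 in Oct4-negative cells. Cxcl14, an attractant of tissues at rest, was the 1 higher chemokine at 6.58 in Oct4+Klf4-negative and 4.96 in Oct4-negative cells.

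Several receptors of these pathways were lower too. Tlr4, the receptor of bacterial lipopolysaccharide, had 3.60 in Oct4+Klf4-negative and 6.55 in Oct4-negative cells. Il1r1, the interleukin-1 receptor, and Tnfrsf1b, a receptor of tumour necrosis factor, had 3.96 and 4.55 in Oct4+Klf4-negative cells, against 6.42 and 6.64 in Oct4-negative cells. Clcf1 and Lif, cytokines of the interleukin-6 family, had 4.52 and 6.66 in Oct4+Klf4-negative cells, against 7.41 and 7.79 in Oct4-negative cells. The alpha chain of the interleukin-6 receptor, Il6ra, had 3.55 in Oct4+Klf4-negative and 6.48 in Oct4-negative cells. Nfkbia and Nfkbiz, which NF-kB induces as feedback, were lower, with differences of -1.12 and -1.67. Against these, Ptx3, a long pentraxin of innate defence, was higher, with 9.70 in Oct4+Klf4-negative and 7.33 in Oct4-negative cells. C1ra and C1s1, the first proteases of complement, were also higher, with 6.81 and 6.05 in Oct4+Klf4-negative cells, against 4.89 and 4.56 in Oct4-negative cells. The complement protease Masp1 was lower, with 4.99 in Oct4+Klf4-negative and 8.30 in Oct4-negative cells and 3 agreeing probe sets. Interferon response genes did not pass the rule: 0 of 9 were higher and 0 lower, with 8 of 9 below 0 and a median of -0.50.

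Of 20 macrophage and leukocyte markers 4 reached the floor, 0 higher and 2 lower. The lower ones were Cd68, a lysosomal protein of macrophages, and Cd14, a co-receptor for lipopolysaccharide, with 5.95 and 3.21 in Oct4+Klf4-negative cells, against 7.76 and 4.63 in Oct4-negative cells. The summed linear level of the list was 235 in Oct4+Klf4-negative cells and 395 in Oct4-negative cells. Ptprc, the pan-leukocyte CD45 gene, and Adgre1, the F4/80 gene, were at background on both arrays, with Adgre1 at 2.27 in Oct4+Klf4-negative and 2.36 in Oct4-negative cells. The part of macrophage RNA in the inflammatory differences was not tested.

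The Cxcl1 promoter is shown for an NF-kB motif next to its start. This motif, searched on both strands, was found in 7.54% of lower genes (31 of 411), 5.38% of higher genes (17 of 316) and 5.25% of all (460 of 8765). Capitals mark the match. Cxcl1 was chosen as a member of the chemokine list after values were seen.
Cxcl1, chr5:90891125-90891234, plus strand: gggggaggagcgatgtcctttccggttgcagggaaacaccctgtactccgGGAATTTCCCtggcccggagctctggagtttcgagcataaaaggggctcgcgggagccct
A match describes the letters and does not show that a factor binds there.

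Immediate early genes, which serum and stress switch on within minutes, had 9 lower and 0 higher members among 25 measured (median -0.53). Fosl1, an AP-1 subunit that lasts longer than Fos, had 6.99 in Oct4+Klf4-negative and 8.64 in Oct4-negative cells, while Fos and Egr1 differed by 0.12 and -0.17. The phosphatases Dusp5 and Dusp6, which limit ERK signalling, were lower, with differences of -1.19 and -1.86. Not all members moved: Jun differed by -0.56 and Srf by -0.03.

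Matrix genes were lower by chain rather than all together, beside 5.14% lower and 3.81% higher over all measured genes. Collagen VI, a microfibril of cell surroundings, was lower in all 3 measured chains (median -3.64), and of 7 measured network and basement membrane collagens 5 were lower and 1 higher (median -1.28). Col18a1, the source of endostatin, had 6.54 in Oct4+Klf4-negative cells and 9.83 in Oct4-negative cells, with its 2 probe sets at -3.28 and -3.27. Col4a1 and Col4a2, the paired chains of basement membrane collagen IV, were lower, with differences of -2.02 and -1.28. Both chains of collagen I were lower: Col1a1 and Col1a2 had 8.06 and 9.16 in Oct4+Klf4-negative cells, against 11.33 and 11.41 in Oct4-negative cells. In contrast Col3a1, which fibroblasts make alongside them, differed by -0.01. Col8a1 was the higher network chain at 9.96 in Oct4+Klf4-negative and 8.53 in Oct4-negative cells, and Col11a1 and Col27a1, fibrillar chains of cartilage, were higher by 1.01 and 1.20, though the second measured Col27a1 probe set differed by 0.00.

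The chains of collagen VI are encoded by genes with different promoters, and that of Col6a1 is shown for an AP-1 motif in capitals. The AP-1 letters TGANTCA, on both strands, stood in 8.27% of lower genes (34 of 411), 6.33% of higher genes (20 of 316) and 5.16% of all (452 of 8765). Fgf13, the higher gene with the largest difference among those with a match, is set beside it, so the motif occurs on both sides.
Col6a1, chr10:76726078-76726184, minus strand: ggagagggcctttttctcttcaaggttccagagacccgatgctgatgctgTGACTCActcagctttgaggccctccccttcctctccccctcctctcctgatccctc
Fgf13, chrX:59166188-59166294, minus strand: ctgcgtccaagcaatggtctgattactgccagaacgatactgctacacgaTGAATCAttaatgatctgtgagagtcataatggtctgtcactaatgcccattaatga
Fgf13 has several annotated starts, and this window belongs to one of them.

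Enzymes that process and cut the matrix differed in both directions. The cross-linking oxidases Lox, Loxl1, Loxl3 and Loxl4 were lower, with differences of -1.83, -2.56, -1.32 and -1.02. Loxl1 had 7.61 in Oct4+Klf4-negative and 10.17 in Oct4-negative cells. The folding and processing list as a whole was centred at 0.00, with 1 of 22 higher and 5 lower, and its higher member was Tll1, a tolloid-like protease, at 7.24 in Oct4+Klf4-negative and 3.89 in Oct4-negative cells. Of 20 matrix proteases and inhibitors 11 were lower and 2 higher (median -1.16). The plasminogen activators Plat and Plau and the receptor Plaur had 3.10, 5.73 and 5.51 in Oct4+Klf4-negative cells, against 6.14, 8.21 and 7.65 in Oct4-negative cells. Mmp2 and Mmp14, a gelatinase and the membrane protease that activates it, were lower, with differences of -1.27 and -1.32 and all their measured probe sets past 2-fold. Mmp11 and Adamts9 were higher by 1.20 and 1.88, and another measured Adamts9 probe set differed by 4.46.

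Elastic fibre and proteoglycan genes contained both kinds. Eln, elastin, and Fbln2, a fibulin of its fibres, had 4.35 and 3.83 in Oct4+Klf4-negative cells, against 7.70 and 7.17 in Oct4-negative cells. Fbln7 was at least 13.2-fold higher, and Fbln5, close to the 2-fold line, had 8.16 in Oct4+Klf4-negative and 7.16 in Oct4-negative cells. Bgn, biglycan, was lower on 3 probe sets, with differences of -3.78 to -3.25, and Kera, keratocan, was higher, with 5.20 in Oct4+Klf4-negative and 2.03 in Oct4-negative cells. Cspg4, the NG2 proteoglycan of pericytes and progenitors, had 4.21 in Oct4+Klf4-negative cells and 7.84 in Oct4-negative cells, on 2 probe sets that differed by -3.63 and -1.57. Thbs1, thrombospondin 1, was higher, with 9.31 in Oct4+Klf4-negative and 8.17 in Oct4-negative cells. Tnc, tenascin C, was lower, with 6.31 in Oct4+Klf4-negative and 8.64 in Oct4-negative cells.

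Of 22 measured contractile genes 8 were lower and 1 was higher (median -0.56), beside 5.14% and 3.81% of all measured genes. Mylk, the myosin light chain kinase, had 4.80 in Oct4+Klf4-negative and 6.81 in Oct4-negative cells. Flnc, filamin C, and Tagln, transgelin, had 7.11 and 7.79 in Oct4+Klf4-negative cells, against 8.86 and 9.16 in Oct4-negative cells. Tpm2 agreed over 4 probe sets at -1.67 to -1.10, and Actn1 over 3 at -1.13 to -1.06. The focal adhesion and stress fibre genes Vcl, Flna and Cnn2 differed by -0.66, -0.32 and -0.12, inside the 2-fold lines. The caveola genes Cav1 and Cav2 were lower, with differences of -1.16 and -2.15, and none of the 6 measured caveola genes had a positive difference. Of 21 YAP and TEAD targets 4 were lower and 0 higher (median -0.16). The direct targets Ccn1 and Ccn2 differed by -0.71 and -0.88, and F3, tissue factor, by -3.79 at 3.27 in Oct4+Klf4-negative and 7.06 in Oct4-negative cells.

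The motif of serum response factor, which drives many contractile genes, was found on either strand in 3.89% of lower genes (16 of 411), 2.85% of higher genes (9 of 316) and 1.45% of all (127 of 8765). The 6-letter TEAD motif GGAATG stood in 14.8%, 14.6% and 12.3% of the same sets. Fhl1, a LIM-domain protein of muscle and fibroblasts, is shown as the lower gene with the largest difference among those with a serum response factor match, and Cited1 as the higher one.
Fhl1, chrX:56779531-56779640, plus strand: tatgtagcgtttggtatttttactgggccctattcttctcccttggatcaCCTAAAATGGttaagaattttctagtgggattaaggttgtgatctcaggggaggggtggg
Cited1, chrX:102252182-102252276, minus strand: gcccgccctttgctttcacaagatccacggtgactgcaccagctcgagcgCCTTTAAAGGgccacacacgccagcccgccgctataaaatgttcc
Fhl1 had 5.96 in Oct4+Klf4-negative cells and 9.25 in Oct4-negative cells. Both shares above that of all genes belong to small sets, and no test was made.

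Among growth factor lists, those of EGF, FGF and TGF-beta held several lower genes, beside 5.14% lower and 3.81% higher over all measured genes. The Hedgehog and Notch lists held few genes past 2-fold. Of 8 measured members of the EGF receptor family and its ligands 5 were lower and 0 higher (median -1.56). The receptor Egfr and the feedback inhibitor Errfi1 had 5.92 and 6.59 in Oct4+Klf4-negative cells, against 7.81 and 8.71 in Oct4-negative cells. The ligands Hbegf and Nrg1 had 5.25 and 3.95 in Oct4+Klf4-negative cells, against 7.40 and 5.18 in Oct4-negative cells. Egfr had 6 measured probe sets, all negative, from -1.89 to -0.44. Of 16 FGF pathway members 6 were lower and 1 higher. The receptors Fgfr1 and Fgfr2 were lower, with differences of -1.21 and -2.18. The ligand Fgf7, a mesenchymal signal to epithelium, had 6.02 in Oct4+Klf4-negative and 7.88 in Oct4-negative cells. The feedback inhibitors Spry1 and Spry4 were lower, with differences of -1.44 and -1.16. Of 24 TGF-beta and activin members 6 were lower and 0 higher (median -0.37). The activin chain Inhbb and the co-receptor Tgfbr3 had 3.57 and 6.23 in Oct4+Klf4-negative cells, against 6.48 and 7.98 in Oct4-negative cells. Pdgfrb, the receptor that marks pericytes and fibroblasts, was lower, with a difference of -1.36. Of 9 Hedgehog pathway members 1 was lower, the co-receptor Gas1 with a difference of -2.47, and 0 were higher (median -0.07). Of 13 Notch pathway members the receptor Notch1 and the target Hes1 were lower, with differences of -1.75 and -1.22, and the ligand Jag1 was higher by 1.03 (median -0.60).

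Wnt genes were mixed. Of 28 measured members 3 were higher and 2 lower, with a median of 0.32, beside 3.81% and 5.14% of all measured genes. Rspo3, which strengthens Wnt signals, had 7.13 in Oct4+Klf4-negative and 4.95 in Oct4-negative cells. The secreted antagonists Sfrp4 and Sfrp1 had 5.56 and 5.86 in Oct4+Klf4-negative cells, against 3.46 and 4.68 in Oct4-negative cells, while the antagonist Dkk3 was lower, with a difference of -1.53. In the retinoid pathway 3 of 7 were lower and 0 higher (median -0.94). The retinoic acid-binding proteins Crabp1 and Crabp2 had 7.26 and 7.15 in Oct4+Klf4-negative cells, against 10.79 and 10.03 in Oct4-negative cells, the largest differences of that list.

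Genes of growth and basic metabolism differed little. Of 37 replication genes 0 were higher and 0 lower, but 32 of 37 differences were positive, with a median of 0.30. The same held for 35 mitosis genes (0 past 2-fold, 30 positive, median 0.25) and 24 DNA repair genes (0 past 2-fold, 21 positive, median 0.33), beside a median of 0.02 for all genes. Mki67, a marker of cycling cells, and the licensing factor Mcm3 had 10.78 and 9.69 in Oct4+Klf4-negative cells, against 10.45 and 9.17 in Oct4-negative cells. Of 29 oxidative phosphorylation genes, 30 proteasome genes and 20 genes of the unfolded protein response, 0 passed 2-fold, with medians of 0.02, 0.05 and 0.00. Among 20 heat shock genes 4 were lower, Hspb8, Hspb6, Hspa1a and Hspa1b. Hspa1a and Hspa1b are near-identical copies whose probe sets can share transcripts.

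The levels on the Klf4-positive arrays separated the named genes. Of the 40 higher genes named by size, 22 were at least 2-fold below the Oct4+Klf4-negative level on both Klf4-positive arrays, 7 on 1 and 11 on neither. Of the 40 lower genes, 11 were at least 2-fold above it on both, 4 on 1 and 25 on neither. Genes chosen for an extreme reading on 1 array tend to be less extreme on another, so these counts are a description only. Epha5 (2.93 and 2.42), Ldb2 (2.69 and 2.44) and Itga1 (3.52 and 2.77) were low on both Klf4-positive arrays. Elavl2 (8.79 and 8.73), Reep1 (8.14 and 7.47) and Tek (9.22 and 8.74) remained bright there. Among the lower genes, Col1a1 (6.15 and 5.26) and Bgn (5.50 and 4.88) were lower still, whereas Kcnn4, a calcium-activated potassium channel, had 4.93 in Oct4+Klf4-negative and 8.62 in Oct4-negative cells and 8.93 and 9.19 on the Klf4-positive arrays. Ano1, a calcium-activated chloride channel, had 5.43 in Oct4+Klf4-negative and 8.11 in Oct4-negative cells, with 9.52 and 9.34 on the Klf4-positive arrays. Nupr1, a stress-induced nuclear protein, had 5.64 in Oct4+Klf4-negative and 8.72 in Oct4-negative cells, with 8.87 and 9.19 on the Klf4-positive arrays.

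**Figure D5:**
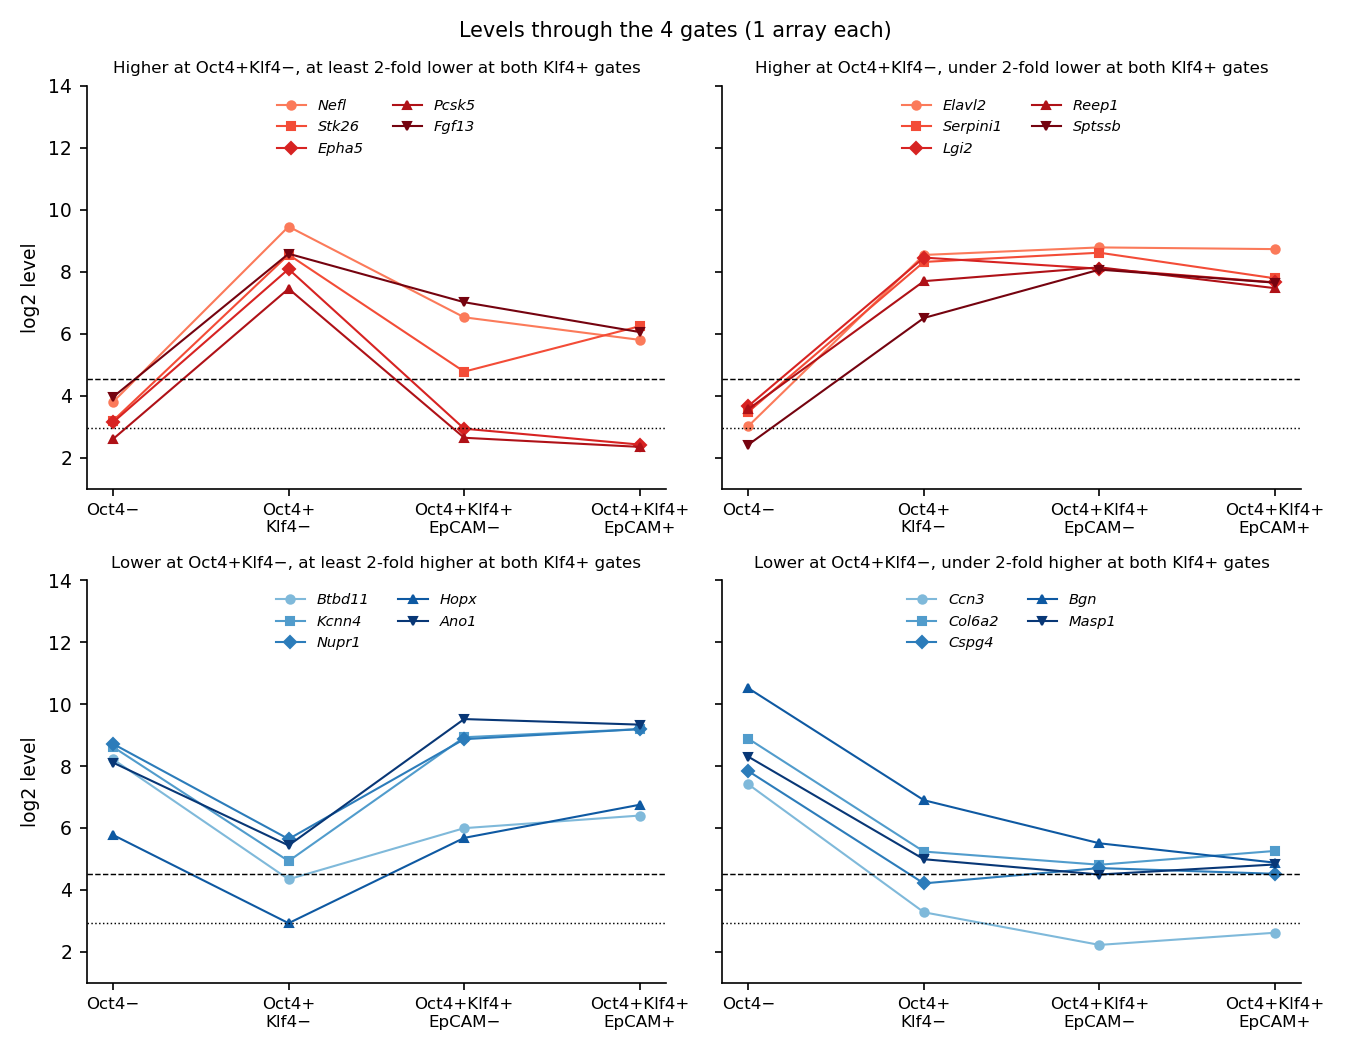
Log2 levels of 20 genes with agreeing probe sets on the 4 arrays in gate order, 1 array a gate, with the floor (dashed) and the highest bacterial control (dotted). Each panel shows the 5 genes of largest difference with that pattern: the upper panels hold genes higher at Oct4+Klf4-negative, the lower panels genes lower there. Epha5 and Pcsk5 peak at the compared gate, Elavl2 and Lgi2 stay bright beyond it, Kcnn4, Nupr1 and Ano1 dip there, and Ccn3 and Bgn stay low beyond it.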

How the data were processed

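RNA of 4 sorted MEF fractions was read on Affymetrix expression arrays, 1 array each. Per the labels' protocols the cells were fixed, permeabilized, stained and sorted, RNA was recovered with RecoverAll and cDNA amplified and biotinylated with the Ovation Pico WTA kit. The authors deposited a log2 level for each of 45101 probe sets, made with RMA per the submitters' processing notes (version not given in the sources used here). RMA normalizes arrays to one distribution, so a shift shared by most genes would not show. Precision is limited by having so few arrays.

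Probe sets were named through the platform annotation: of 45037 that are not controls, 34945 had 1 symbol, 932 several (not used) and 9160 none listed. A RefSeq table (GRCm38.p6) matched 34754 of them and changed 0 symbols. A gene took the probe set whose mean level across the series was highest. Differences are Oct4+Klf4-negative minus Oct4-negative. A gene was called at 2-fold (log2 of 1) if its brighter level reached 4.53, the median of the value table. Where the dimmer level was at or below 2.94, the highest of 27 bacterial controls, the fold was taken against that value and is written "at least". No test was possible with 1 array a side.

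The genes named are Pou5f1, the 25 in each direction with the largest difference among those with several probe sets above the floor, all of them past 2-fold, the 15 in each direction among those with 1 such probe set, members of 97 gene lists and 55 gene families, and called genes with opposed probe sets. Uncharacterized genes were left out of the ranks. The members and lists were chosen with earlier results of these data known. Promoters are the 250 bases before RefSeq starts, for 8765 of the 10758 measured genes, and Synpr, Sned1 and Fhl1 were named by the promoter rule. That rule took the largest difference in each direction among genes with a match, leaving out uncharacterized genes and those on chromosome 18. Simulated data with known changes were used to test the size rule. The floor, the fold, the choice of probe set, probe sets ending in _s_at or _x_at and centring were varied. Analyses used Python 3.11.15, pandas 2.3.3, numpy 2.4.6 and matplotlib 3.10.9.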

Additional observations from a re-analysis of the deposited data

How the results depend on the processing

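The counts of 410 higher and 553 lower genes became 191 and 303 with the floor at the 75th percentile, 943 and 1108 at 1.5-fold, 201 and 279 at 3-fold, and 118 and 150 when at least 2 agreeing probe sets were required, each by the construction of the rule. The other settings gave 323 and 469 with the mean of all probe sets (304 and 441 genes shared with the main call), 408 and 559 with the brightest probe set over the 2 arrays, 397 and 537 without probe sets ending in _s_at or _x_at, 460 and 610 with no floor and 399 and 571 after centring on the median. In none of these did a gene switch direction. Differences of the named genes moved by 0.165 log2 units or more in 57 of 320 cases and reversed in 0. That limit is the median SD between probe sets over all genes with several, not each gene's own scatter. Counts of higher members of a list moved by over 1.5 times in 32 cases and stayed within that in 87, and counts of lower members moved in 60 and stayed in 262. Requiring agreeing probe sets, which leaves fewer genes, moved 15 counts of higher members (2 stayed) and 38 of lower members (8 stayed). List medians moved by the same limit of 0.165 in 139 cases and stayed in 788. In 20 others, with a main median of at least 0.165 in size, they changed sign or became 0, and the cause was not tested. Sign changes of smaller medians were counted as moved or stayed. With no floor the medians became 0.0238 for macrophage, 0.0327 for keratinocyte, 0 for BMP, -0.153 for early pluripotency, 0 for protocadherin, 0.113 for cadherin, -0.0442 for aldo-keto reductase and 0.0335 for myosin genes. With the 75th percentile floor they became 0.0993 for BMP, 0.945 for neurotrophic and 0.0293 for heat shock genes. With agreeing probe sets required they became -1.56 for radial glia, 0.0993 for BMP, 0.257 for semaphorin and plexin, 2.02 for neurotrophic, -0.770 for early pluripotency, 0.0390 for heat shock, -0.0546 for aldo-keto reductase and -0.00713 for tubulin genes. With the mean of all probe sets the late pluripotency median became -0.181. No paired analysis was possible because each fraction has 1 array. Low signal limits genes near background, where folds are bounds, and no alternative can supply the variation between cultures that 1 array a side leaves unmeasured.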

Other observations

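Genes on the X chromosome were higher more often than those of other chromosomes. Of 334 measured X-linked genes 9.58% were higher in Oct4+Klf4-negative cells and 4.49% lower, with a median difference of 0.09, against 1.35% to 6.59% higher on the autosomes. They included Stk26, Fgf13, Cited1, Tmsb15a and Dmd, and the related genes Bex4 and Bex1, small adaptor proteins common in neurons, which were higher by 4.25 and 1.80. Xist, the RNA that coats the inactive X, had 2.44 in Oct4+Klf4-negative and 2.55 in Oct4-negative cells, at background, and the Y-linked genes Eif2s3y, Kdm5d and Uty differed by -0.08, 0.18 and -0.12. Whether X dosage differed between the fractions was not tested.

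Lipid and transport genes held smaller differences. Of 21 cholesterol synthesis and uptake genes 2 were lower and 0 higher, but 16 of 21 differences were negative (median -0.49), among them Sqle, squalene epoxidase, and Msmo1, a sterol methyl oxidase, with 7.33 and 6.40 in Oct4+Klf4-negative cells, against 8.09 and 7.80 in Oct4-negative cells. Of 175 measured solute carriers 6 were higher and 11 lower, a share near that of all genes. Slc4a11, a borate-type transporter of corneal endothelium, and Slc48a1, a heme transporter, had 5.44 and 7.62 in Oct4+Klf4-negative cells, against 7.82 and 9.55 in Oct4-negative cells. Of 10 measured annexins 3 were lower and 1 higher, and the lower Anxa1 and Anxa3 had 9.09 and 7.31 in Oct4+Klf4-negative cells, against 10.62 and 9.30 in Oct4-negative cells. Regulators of G protein signalling had 3 of 8 lower and 0 higher, led by Rgs2 at 4.18 in Oct4+Klf4-negative and 6.70 in Oct4-negative cells, where 3 probe sets agreed. Cldn1, a tight junction claudin, was higher, with 5.70 in Oct4+Klf4-negative and 2.89 in Oct4-negative cells. Of 2903 probe sets without a listed gene that reached the floor, 127 were higher and 139 lower. Among the 10758 measured genes 410 were higher (3.81%) and 553 lower (5.14%).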
